A study of Mus musculus with 18 samples.

Results

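Small intestinal organoids, grown from the crypts of C57BL/6J wild-type mice, were compared between 2 surroundings after injury, with every culture exposed to 5-fluorouracil (5-FU). The comparison rests on 6 of the 18 RNA libraries of the series, 3 in each group, taken by their labels alone and read over all genes. MG_5FU organoids lay in Matrigel, a basement membrane extract rich in laminin and collagen type IV, under ENR medium, which supplies EGF, Noggin and R-spondin 1. COL_5FU organoids lay in collagen type I, a fibrillar collagen of connective tissue, under ENRW medium. The composition of ENRW is not given in the sources used here, so matrix and medium cannot be told apart in any difference reported here. Both groups carried 40 µM 5-FU from day 4, and RNA was extracted on day 6. MG_Control and COL_Control, with 3 libraries each and the same surroundings without 5-FU, served as the comparison without injury. The series calls the replicates biological but does not say whether each came from its own mouse, so p-values measure the spread between these libraries. The cultures are labelled as intestinal epithelial cells, and a culture of this kind is grown without the stroma that surrounds a crypt in the animal.

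The intestinal epithelium renews itself from crypt base stem cells that depend on Wnt signals and on contact with Paneth cells. Their progeny become absorptive enterocytes or secretory cells, which are the goblet, Paneth, enteroendocrine and tuft cells. After injury the epithelium can pass through a fetal-like state in which YAP, a transcription coactivator that works through TEAD factors and responds to tension and matrix contact, is active. 5-FU is converted to nucleotides that block thymidylate synthase and enter RNA and DNA, and in crypts it activates p53.

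Depth was similar across the compared libraries, at 22.3 to 30.0 M estimated counts in MG_5FU and 27.5 to 33.4 M in COL_5FU. Mitochondrially encoded genes took 1.2 to 1.95% of counts in MG_5FU and 0.84 to 0.94% in COL_5FU. Read from Xist and Y-linked transcripts, the replicates numbered 2 were male in all 4 groups and the rest female, and COL_Control replicate 3 alone carried both signals. Levels are given as counts per M, that is per 1000000 (CPM) for replicates 1, 2 and 3 in that order. Fold changes are on the log2 scale, collagen over Matrigel, with their standard error (SE) and the edgeR adjusted p. A gene was called where that p was under 0.05.

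Promoter windows of 5 genes are shown here because they carry short words known as binding motifs of TEAD or of HNF4, factors known to regulate YAP target genes and enterocyte genes. Each window is the 250 bases before the RefSeq start site on GRCm38.p6, with the word in capitals. Windows of 7 genes of the YAP and TEAD list and 4 genes of the enterocyte lists hold their word. The 5 shown were picked by hand from these, and Ajuba, Axl, Crim1, Edn1, Slc3a1 and Treh are not shown. The first 3 are YAP and TEAD target genes that were higher in collagen: Ankrd1 (chr19:36119845-36120094, minus strand), Ccn1 (chr3:145649986-145650235, minus strand) and Amotl2 (chr9:102717554-102717803, plus strand). Capitals mark GGAATG or, read on the other strand, CATTCC.
Ankrd1: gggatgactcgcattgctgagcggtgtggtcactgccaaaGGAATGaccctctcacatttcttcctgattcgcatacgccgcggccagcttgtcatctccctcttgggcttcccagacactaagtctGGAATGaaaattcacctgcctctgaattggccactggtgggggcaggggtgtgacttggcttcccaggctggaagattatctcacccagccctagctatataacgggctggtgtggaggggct
Ccn1: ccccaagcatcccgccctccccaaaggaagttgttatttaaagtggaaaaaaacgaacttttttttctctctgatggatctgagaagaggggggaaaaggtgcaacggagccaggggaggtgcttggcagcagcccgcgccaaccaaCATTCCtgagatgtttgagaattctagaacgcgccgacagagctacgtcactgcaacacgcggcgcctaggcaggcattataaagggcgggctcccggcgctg
Amotl2: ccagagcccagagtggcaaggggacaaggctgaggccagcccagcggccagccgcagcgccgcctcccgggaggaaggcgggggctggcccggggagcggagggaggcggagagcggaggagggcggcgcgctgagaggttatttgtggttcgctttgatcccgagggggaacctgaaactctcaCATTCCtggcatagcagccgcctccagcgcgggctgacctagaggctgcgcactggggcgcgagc
The other two, Cyp3a11 (chr5:145879855-145880104, minus strand), which encodes a drug-metabolizing cytochrome P450, and Alpi (chr1:87101607-87101856, minus strand), which encodes intestinal alkaline phosphatase, are enterocyte genes that were lower in collagen. Capitals mark CAAAGTCCA.
Cyp3a11: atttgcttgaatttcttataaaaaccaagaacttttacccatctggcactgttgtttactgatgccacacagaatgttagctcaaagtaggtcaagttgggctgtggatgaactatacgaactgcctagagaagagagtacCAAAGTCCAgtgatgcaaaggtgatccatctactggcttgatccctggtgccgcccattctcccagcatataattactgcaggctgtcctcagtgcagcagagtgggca
Alpi: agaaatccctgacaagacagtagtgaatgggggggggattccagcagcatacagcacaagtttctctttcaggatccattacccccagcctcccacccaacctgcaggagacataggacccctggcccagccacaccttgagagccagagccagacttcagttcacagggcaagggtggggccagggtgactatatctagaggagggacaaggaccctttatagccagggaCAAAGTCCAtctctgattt
Searched on both strands, GGAATG occurred in 7 of 18 windows of the YAP and TEAD list (38.9%), in 10.9% of windows of the genes tested and in 12.6% of all windows in the RefSeq table. CAAAGTCCA occurred in 4 of 63 windows of the 3 enterocyte lists (6.35%), in 0.422% of those of the genes tested and in 0.384% of all. The windows cover 16 of 22 and 52 of 63 genes of these lists. GGAATG was also in 15.1% of windows of genes called higher in collagen under 5-FU by a log2 value of 3 or more. It was in 13.5% of windows of genes called lower by as much, and in 14.3% of windows of the enterocyte lists. The share of GGAATG was thus close in the higher and lower genes, and its difference was not tested. CAAAGTCCA was in 2 of 192 windows of those higher genes and in 14 of 591 windows of the lower genes. Words of HNF1, AP-1, CRE and the CArG box were searched too, so the words reported above were chosen among several. The AP-1 word was in 10.2% of windows of those lower genes, 7.81% of the higher genes and 4.85% of the genes tested. The CArG box was in 21.7% of windows of the immediate early and heat shock list and 1.19% of the genes tested. The HNF1 word was in 0% of windows of the genes tested. None of these shares was tested. A match describes letters in a window and no bound factor was measured.

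Under 5-FU, collagen organoids carried fewer transcripts of most enterocyte and secretory genes listed than Matrigel organoids and more of basement membrane, adhesion and fetal-like genes. Of 16611 genes tested, 5905 were called (35.5%), 2822 higher in collagen (17.0%) and 3083 lower (18.6%). Without 5-FU, 5188 were called (31.2%), 2628 higher (15.8%) and 2560 lower (15.4%). Large changes leaned towards lower levels in collagen: 692 called genes were lower by a log2 value of at least 3 and 230 were higher by as much. In COL_5FU, 90 of the genes called lower had 0 counts in all 3 libraries, and in MG_5FU 26 of the genes called higher did. The CPM values of the 3 and 3 libraries did not overlap for 8304 genes (50.0%). The share of calls that were higher, 47.8%, was 60.4% when libraries were scaled by their totals, 57.9% without the expression filter, 58.3% with all 18 libraries in 1 fit, and 80.5% by limma-trend on the deposited TPM. The median over all genes tested, 0.00, moved to 0.12 with library totals and to 0.37 on TPM, so small changes of either sign are relative to that choice.

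**Figure D1:**
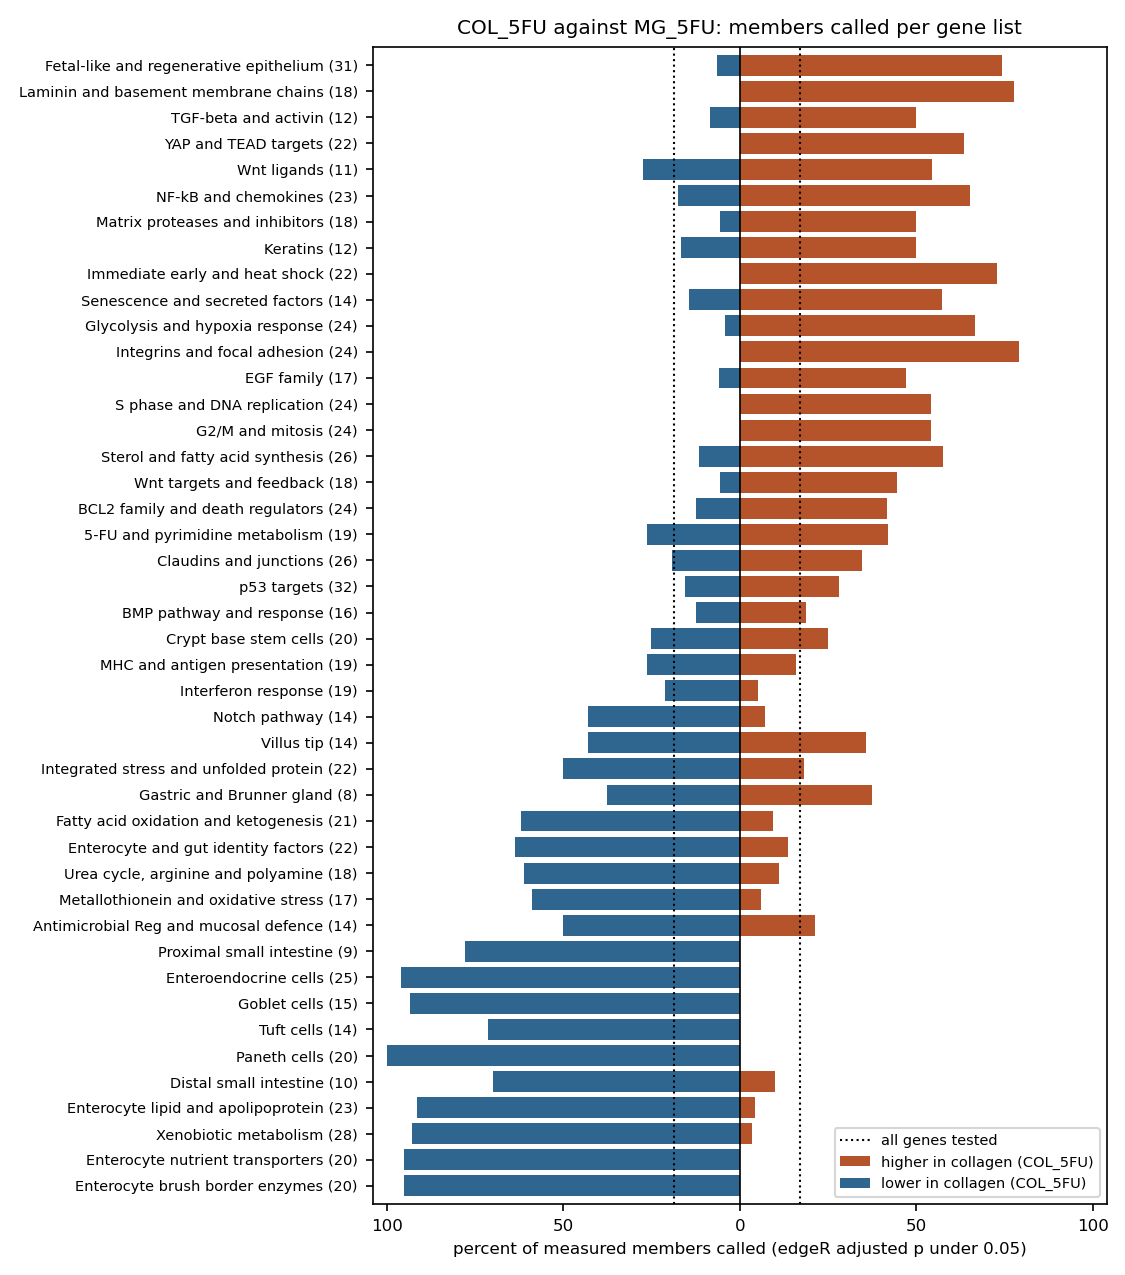
Percent of the measured members of each gene list that were called higher (right, red) or lower (left, blue) in COL_5FU than in MG_5FU, with the number of measured members in parentheses. The dotted lines mark all genes tested, 17.0% higher and 18.6% lower. All 20 Paneth cell genes lie on the lower side, and 19 of 24 integrin and focal adhesion genes on the higher side.

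The absorptive programme was far lower in collagen. Enterocytes digest and take up food at a brush border of microvilli. In bulk RNA, fewer cells of a type and less RNA per cell cannot be told apart, here and for every marker list that follows. Of 20 brush border enzyme genes measured out of 21 listed, 19 were lower, 0 were higher and the median was -5.09, against a median of 0.00 for all genes. Sis, which encodes sucrase-isomaltase (ENSMUSG00000027790.15), stood at 305, 359 and 361 CPM in Matrigel and 0.734, 2.06 and 1.78 CPM in collagen. Every collagen library lay far below every Matrigel library, and the gene fell by 7.79 ± 0.46 (adjusted p = 2.60e-08). Mme, which encodes the membrane peptidase neprilysin, stood at 108, 130 and 125 CPM in Matrigel and 0.55, 0.91 and 0.963 CPM in collagen, a change of -7.21 ± 0.28 (adjusted p = 1.05e-09). Anpep, which encodes aminopeptidase N, kept a higher remainder, at 334, 334 and 369 CPM in Matrigel and 29.4, 29.8 and 36.3 CPM in collagen (-3.44 ± 0.21, adjusted p = 3.47e-08). Cdhr5, a protocadherin that links microvilli to each other, fell by 2.00 ± 0.11 (adjusted p = 1.57e-08), less than these enzymes.

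Nutrient carriers were lower by a similar median. Of 20 transporter genes measured out of 21, 19 were lower and 0 higher, with a median of -4.91. Slc5a1, which encodes the sodium-glucose carrier SGLT1, stood at 578, 602 and 622 CPM in Matrigel and 34.9, 41.1 and 58.3 CPM in collagen (-3.74 ± 0.22, adjusted p = 2.72e-08). The amino acid carrier genes went lower still. Slc6a19 stood at 158, 195 and 198 CPM in Matrigel and 0.844, 0.56 and 0.408 CPM in collagen, Slc6a20a at 0.66, 0.595 and 0.263 CPM in collagen against 168, 168 and 179 CPM in Matrigel, and Slc7a9 fell by 5.56 ± 0.21 (adjusted p = 9.31e-10). For several genes no read was counted in collagen, and only a lower bound on the fold can be given, set by 3 counts over the group. Slc5a4b, a member of the glucose carrier family, had 6764 counts over MG_5FU and 0 over COL_5FU and was at least 2840-fold lower in collagen. The same bound was at least 1180-fold lower for Slc5a11, which encodes an inositol carrier, at least 751-fold lower for Slc13a2, which encodes a dicarboxylate carrier, and at least 397-fold lower for Slc28a1, which encodes a nucleoside carrier. Aqp8, a water channel gene, was at least 557-fold lower, and the carrier genes Mfsd4b2 and Slc6a3 were at least 336-fold and at least 323-fold lower. Such bounds cover counting error only.

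Lipid handling followed. Of 23 lipid and apolipoprotein genes measured out of 24, 21 were lower and 1 higher, with a median of -4.67, and 2 were higher with RLE factors, library totals and TPM. Apoa1, which encodes the main protein of HDL particles, stood at 2590, 2460 and 2550 CPM in Matrigel and 30.3, 23.7 and 31.3 CPM in collagen (-6.48 ± 0.29, adjusted p = 2.55e-09). Fabp1, which encodes a fatty acid binding protein of enterocytes, stood at 2140, 994 and 1220 CPM in Matrigel and 6.38, 20.1 and 35.9 CPM in collagen and varied most in collagen, with a change of -6.12 ± 0.79 (adjusted p = 4.25e-05) that was -6.77 without COL_5FU replicate 3. Dgat1, which encodes the enzyme of the last step of triglyceride synthesis, changed by -3.31 ± 0.15 (adjusted p = 3.50e-09), and Gpd1, which encodes glycerol-3-phosphate dehydrogenase, by -3.70 ± 0.18 (adjusted p = 4.86e-09). The single member called higher was Scarb1, the HDL receptor gene, at 0.65 ± 0.13 (adjusted p = 0.00178), named here after its value was seen.

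The genes that clear drugs and foreign compounds fell with them. Of 28 xenobiotic metabolism genes, all measured, 26 were lower and 1 higher, with a median of -4.89. Gstm1, which encodes a glutathione transferase, stood at 2360, 3140 and 3450 CPM in Matrigel and 64.9, 91.3 and 96.3 CPM in collagen (-5.15 ± 0.21, adjusted p = 1.69e-09), and its relative Gstm3 at 1280, 1550 and 1620 CPM in Matrigel and 6.82, 4.76 and 8.72 CPM in collagen (-7.77 ± 0.30, adjusted p = 1.05e-09). Counting may have split reads between these close copies. The cytochrome P450 gene Cyp4f14 stood at 425, 420 and 424 CPM in Matrigel and 0.624, 1.92 and 1.02 CPM in collagen, Cyp4b1 changed by -5.31 ± 0.22 (adjusted p = 1.92e-09) and Cyp3a13 by -4.28 ± 0.19 (adjusted p = 2.55e-09). Cyp2c38 had 0 counts in collagen and was at least 430-fold lower. Rdh7, which encodes a retinol dehydrogenase, stood at 63, 65 and 66.8 CPM in Matrigel and 0, 0 and 0.117 CPM in collagen, its 4 collagen counts coming from replicate 3. The complement factor H related gene Cfhr2 was at least 1330-fold lower, with 0 collagen counts. Clec2h, a lectin gene, had 1 collagen count, a Matrigel to collagen ratio of 1790 (95% interval 321 to 70800). The exception in the other direction was Cyp1b1, a P450 gene, at 4.73 ± 0.48 (adjusted p = 4.78e-06), also named after its value was seen.

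Most genes listed here as proximal or distal markers of the small intestine were lower in collagen. Of 9 proximal genes 7 were lower and 0 higher (median -1.19), with 1 higher on library totals and on TPM, among them Pdx1, a duodenal transcription factor gene, at -1.47 ± 0.22 (adjusted p = 1.42e-04), and the reductase gene Cyb5r3 at -1.19 ± 0.09 (adjusted p = 2.30e-07). Of 10 genes measured out of 11 listed as distal, 7 were lower and 1 higher (median -4.10). The region of each listed gene was not checked in these data. Fabp6, of the same list, was below the filter, with 3 counts in MG_5FU and 1 in COL_5FU. Guca2b, which encodes uroguanylin, stood at 555, 410 and 425 CPM in Matrigel and 9.76, 8.47 and 9.45 CPM in collagen (-5.65 ± 0.21, adjusted p = 7.39e-10). Guca2a, which encodes guanylin, changed by -3.98 ± 0.22 (adjusted p = 1.57e-08), and Slc51a, a subunit gene of the basolateral bile acid exporter, by -6.67 ± 0.38 (adjusted p = 1.80e-08). The esterase gene Ces1f stood at 249, 288 and 314 CPM in Matrigel and 0.624, 0 and 0.175 CPM in collagen. The villus tip list was mixed, with 5 of 14 higher and 6 lower (median -0.29). Its enterocyte members Creb3l3, a lipid-regulating transcription factor gene (-6.45 ± 0.41), Krt20 (-3.42 ± 0.17) and Ephx2, an epoxide hydrolase gene (-4.23 ± 0.19), were lower, while Fos was higher. The list of 8 gastric and Brunner gland genes measured out of 14 had 3 higher and 3 lower (median -0.39). Pgc, the pepsinogen C gene, fell by 1.79 ± 0.28 (adjusted p = 2.36e-04), Aqp5, a water channel gene of glands, rose by 4.55 ± 0.59 (adjusted p = 1.01e-04, 5.16 without MG_5FU replicate 1), and Tff1, a trefoil peptide gene, had 1 count in collagen against 226 in Matrigel, a ratio of 280 (95% interval 49.8 to 11100). Vsig1, a junction protein gene of stomach, changed by 1.40 ± 0.39 (adjusted p = 0.0128), and its adjusted p was 0.0525 without MG_5FU replicate 2.

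Transcription factors that maintain gut identity had a smaller median than the enterocyte lists, and some were higher. Of 22 such genes 14 were lower and 3 higher, with a median of -0.77. Hnf4g, which encodes a nuclear receptor of enterocytes, stood at 108, 150 and 136 CPM in Matrigel and 9.54, 13.2 and 12 CPM in collagen (-3.51 ± 0.24, adjusted p = 9.77e-08). Cdx1, a caudal homeobox gene of the gut, stood at 164, 147 and 144 CPM in Matrigel and 13.7, 24.6 and 24.8 CPM in collagen (-2.85 ± 0.19, adjusted p = 8.35e-08), and Isx, a homeobox gene that controls vitamin A uptake, fell by 2.44 ± 0.11 (adjusted p = 3.44e-09). Gata4, a factor gene of the proximal intestine, fell by 0.88 ± 0.13 (adjusted p = 1.79e-04). Hnf4a and Cdx2, named after their values were seen, were at -0.39 ± 0.13 (adjusted p = 0.0291) and -0.83 ± 0.10 (adjusted p = 1.63e-05). The call of Hnf4a ended with library totals (adjusted p = 0.131), without the filter (0.0758), with all 18 libraries (0.178) and without MG_5FU replicate 2 or 3 or COL_5FU replicate 1 or 2 (0.0902 to 0.14), and its value was 0.19 on TPM.

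**Figure D2:**
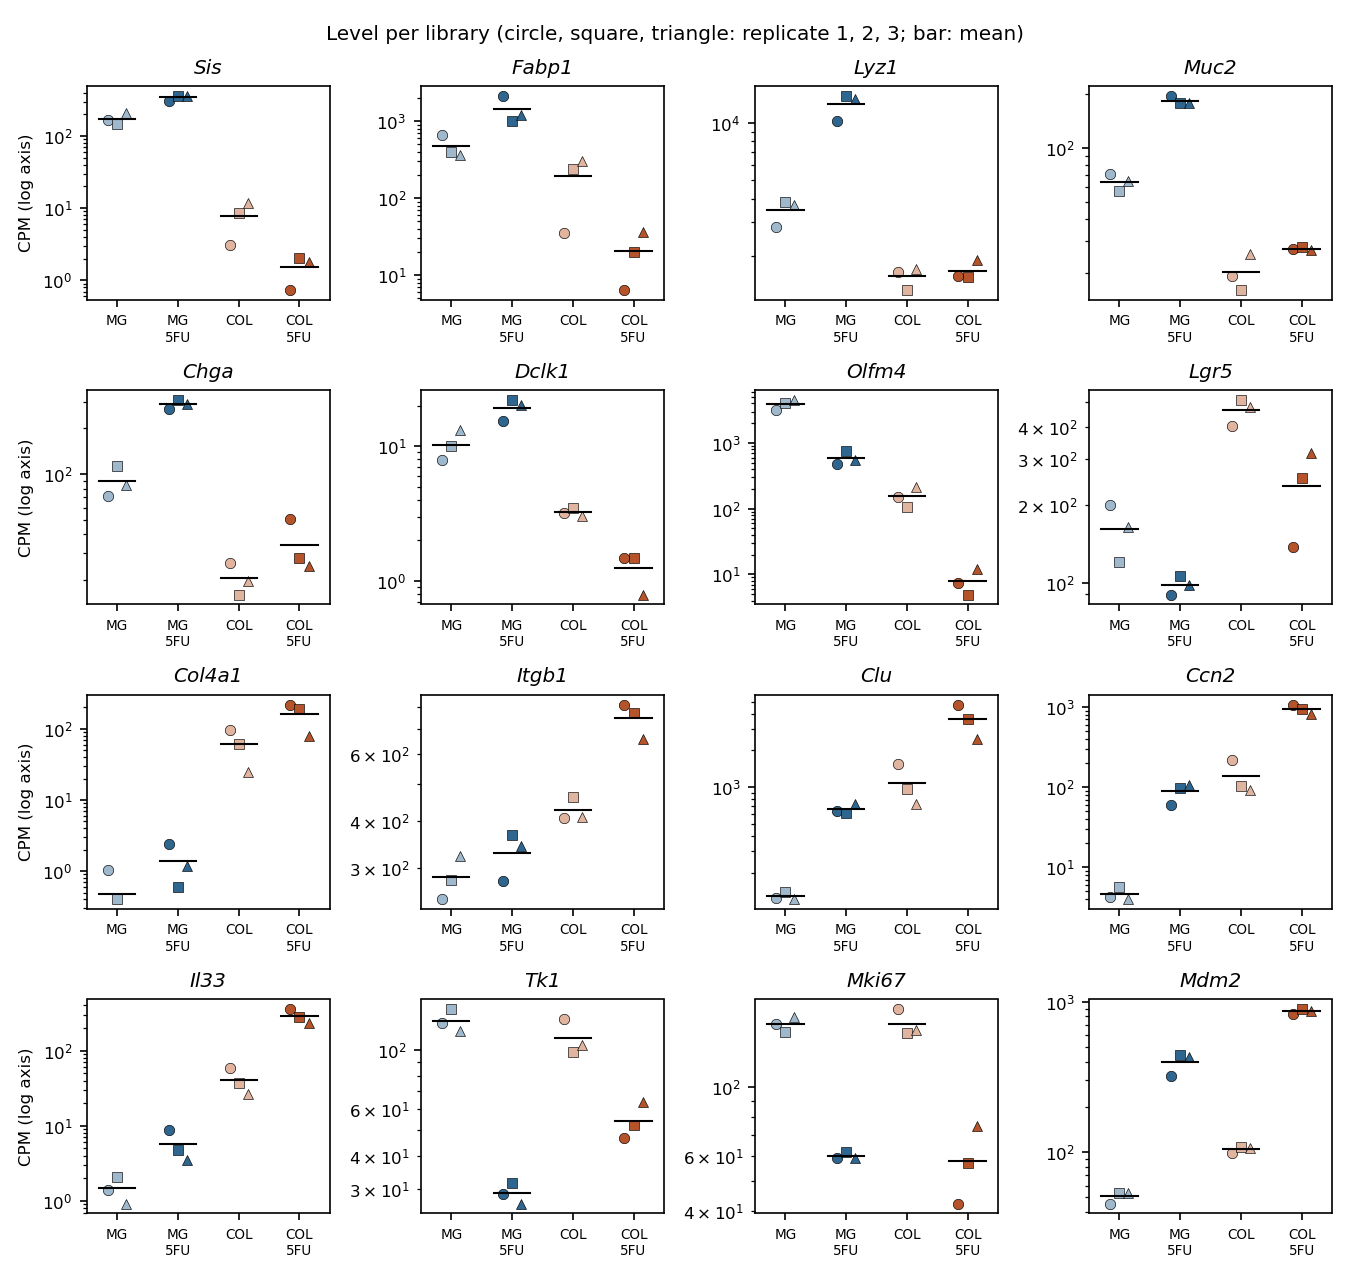
CPM of 16 genes in each library on log axes, with circle, square and triangle for replicates 1, 2 and 3 and a bar for the mean of the group. Columns are Matrigel without (MG) and with 5-FU (MG 5FU) and collagen without (COL) and with 5-FU (COL 5FU); 1 MG_Control library of Col4a1 at 0 CPM is not drawn. Sis, Fabp1 and Olfm4 are lowest in collagen with 5-FU, Ccn2, Clu and Il33 are highest there, and Mki67 overlaps between both 5-FU groups.

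Markers of every secretory lineage examined were lower in collagen under 5-FU. Paneth cells guard the crypt base with lysozyme and defensins. All 20 Paneth genes measured out of 21 listed were lower, with a median of -3.26. Lyz1, the Paneth lysozyme gene (ENSMUSG00000069515.7), stood at 10200, 13900 and 13400 CPM in Matrigel and 1560, 1550 and 1900 CPM in collagen (-2.90 ± 0.16, adjusted p = 1.31e-08). Among the defensin genes, Defa5 stood at 130, 136 and 138 CPM in Matrigel and 4.44, 4.97 and 5.51 CPM in collagen (-4.76 ± 0.14, adjusted p = 2.89e-10) and Defa30 at 2160, 1840 and 2080 CPM in Matrigel and 132, 139 and 150 CPM in collagen (-3.85 ± 0.14). Defa21 and Defa23 changed by -4.64 ± 0.15 and -3.87 ± 0.12. The defensins form a family of near-identical copies, as do Lyz1 and Lyz2, so the share of each copy is uncertain. Mmp7, which encodes the protease that activates defensins, fell least among the members named, at 580, 513 and 507 CPM in Matrigel and 171, 138 and 137 CPM in collagen (-1.84 ± 0.18, adjusted p = 4.38e-06).

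Goblet cells make mucus. Of 15 goblet genes measured out of 16, 14 were lower and 0 higher (median -2.75). Muc2, the main mucin gene, stood at 195, 177 and 178 CPM in Matrigel and 27, 27.7 and 26.8 CPM in collagen (-2.75 ± 0.15, adjusted p = 1.15e-08), with a tight spread in each group. Clca1, a secreted mucus protein gene, stood at 584, 391 and 520 CPM in Matrigel and 19.1, 20.5 and 12.8 CPM in collagen (-4.84 ± 0.24, adjusted p = 5.62e-09). The lectin gene Zg16 stood at 284, 170 and 215 CPM in Matrigel and 1.14, 1.92 and 0.846 CPM in collagen (-7.43 ± 0.41), and the kallikrein gene Klk1 fell by 4.89 ± 0.20 (adjusted p = 1.69e-09). Levels in collagen within this lineage thus ranged from a remainder of Muc2 to a near absence of Zg16.

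Enteroendocrine cells release hormones. Of 25 genes, all measured, 24 were lower and 0 higher (median -2.58). Chga, which encodes the granule protein chromogranin A, stood at 267, 306 and 289 CPM in Matrigel and 50.1, 27.7 and 24.8 CPM in collagen (-3.07 ± 0.26, adjusted p = 9.93e-07). Neurog3, the factor gene that starts this lineage, stood at 48.7, 65.8 and 57.1 CPM in Matrigel and 9.65, 4.48 and 5.6 CPM in collagen (-3.12 ± 0.28, adjusted p = 1.34e-06). Tac1, the substance P gene, and Tph1, the gene for serotonin synthesis in enterochromaffin cells, changed by -3.77 ± 0.23 (adjusted p = 4.13e-08) and -2.87 ± 0.25 (adjusted p = 1.06e-06). Tuft cells sense luminal chemicals. Of 14 tuft genes measured out of 18, 10 were lower and 0 higher (median -3.14), though 1 was called higher with library totals and on TPM. Dclk1, a kinase gene used as their marker, stood at 15.4, 22 and 20.3 CPM in Matrigel and 1.47, 1.47 and 0.788 CPM in collagen (-3.96 ± 0.29, adjusted p = 2.53e-07). Trpm5, the taste channel gene, and Rgs13 changed by -3.04 ± 0.29 and -3.56 ± 0.43.

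Notch signalling sorts absorptive from secretory fates. Of 14 pathway genes measured out of 17, 6 were lower and 1 higher (2 on library totals and on TPM), and the median of -0.27 was 0.00 on TPM. Dll1 and Dll4, ligand genes carried by secretory cells, stood at 38.5, 36.7 and 37 CPM in Matrigel and 10.5, 7.45 and 11.7 CPM in collagen and at 27.2, 21.3 and 23.8 CPM in Matrigel and 3.49, 4.16 and 3.06 CPM in collagen, with changes of -1.92 ± 0.17 (adjusted p = 1.62e-06) and -2.76 ± 0.18 (adjusted p = 9.39e-08). Atoh1, the factor gene that commits cells to the secretory fate, fell by 1.48 ± 0.14 (adjusted p = 3.41e-06). Jag2, another ligand gene, moved the other way, by 1.27 ± 0.16 (adjusted p = 2.76e-05).

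Mucosal defence genes were split. Of 14 measured out of 24, 7 were lower and 3 higher (median -0.88). Reg1, a secreted regenerating protein gene, stood at 1550, 1280 and 1540 CPM in Matrigel and 5.54, 8.4 and 7.73 CPM in collagen (-7.65 ± 0.37, adjusted p = 5.62e-09), and the antimicrobial lectin gene Reg3a at 71.9, 54.2 and 52.4 CPM in Matrigel and 0.0734, 0.07 and 0.117 CPM in collagen (-9.32 ± 0.33). The Reg genes are similar copies, so their single values are uncertain. Lypd8, whose product keeps bacteria off the surface, changed by -5.66 ± 0.33 (adjusted p = 2.34e-08), and Pigr, which encodes the receptor that carries IgA across the cell, by -2.68 ± 0.25 (adjusted p = 2.53e-06).

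Genes of the matrix and of attachment to it were higher in collagen. Laminins, collagen type IV, nidogens and perlecan build the basement membrane on which epithelium rests. Of 18 chains measured out of 23, 14 were higher and 0 lower (median 1.57). Col4a1, a collagen type IV chain gene (ENSMUSG00000031502.12), stood at 2.44, 0.604 and 1.18 CPM in Matrigel and 218, 191 and 78.7 CPM in collagen, a rise of 6.82 ± 0.70 (adjusted p = 5.49e-06) that was 7.55 without MG_5FU replicate 1. Its head-to-head neighbour Col4a2 stood at 3.42, 1.33 and 1.08 CPM in Matrigel and 210, 154 and 82.5 CPM in collagen (6.21 ± 0.71, and 6.94 without MG_5FU replicate 1). Col18a1, the gene of a basement membrane collagen, stood at 4.26, 4.51 and 1.92 CPM in Matrigel and 211, 179 and 101 CPM in collagen (5.50 ± 0.55, adjusted p = 4.73e-06). Agrn, the agrin gene, rose by 1.17 ± 0.13 (adjusted p = 1.31e-05). In each of Col4a1, Col4a2 and Col18a1 the collagen replicate 3 was the lowest of its group and still lay above every Matrigel library.

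Integrins are the receptors that hold cells to these proteins. Of 24 integrin and focal adhesion genes measured out of 26, 19 were higher and 0 lower (median 0.76). Itgb1, which encodes the chain shared by the collagen and laminin receptors, stood at 277, 367 and 342 CPM in Matrigel and 810, 769 and 657 CPM in collagen (1.18 ± 0.13, adjusted p = 1.03e-05). Itga2, its partner chain gene in a collagen receptor, stood at 31.8, 37.1 and 27.4 CPM in Matrigel and 89.6, 83.4 and 79.6 CPM in collagen (1.39 ± 0.14, adjusted p = 6.27e-06). Flna, which encodes the actin crosslinker filamin A, stood at 99.8, 104 and 122 CPM in Matrigel and 515, 456 and 393 CPM in collagen (2.06 ± 0.22), and Parva, a focal adhesion adaptor gene, rose by 0.99 ± 0.12 (adjusted p = 2.49e-05). Of 18 matrix protease and inhibitor genes measured out of 26, 9 were higher and 1 lower (median 1.00), with 14 higher on TPM. Mmp14, which encodes a membrane-bound collagenase, stood at 57.8, 64.6 and 50.4 CPM in Matrigel and 262, 266 and 189 CPM in collagen (2.05 ± 0.14, adjusted p = 1.40e-07). Plat, the tissue plasminogen activator gene, and the serpin gene Serpinb5 rose by 2.26 ± 0.22 (adjusted p = 3.06e-06) and 2.12 ± 0.18 (adjusted p = 1.19e-06). The single member lower was the Paneth gene Mmp7.

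Fetal-like and YAP target genes were higher in collagen. Of 31 fetal-like and regenerative genes, all measured, 23 were higher and 2 lower (median 1.62). Clu, the clusterin gene that marks cells revived after injury (ENSMUSG00000022037.16), stood at 644, 615 and 723 CPM in Matrigel and 4720, 3590 and 2470 CPM in collagen (2.44 ± 0.26, adjusted p = 6.79e-06). Ly6a, which encodes Sca-1, stood at 304, 155 and 164 CPM in Matrigel and 1470, 1580 and 1050 CPM in collagen (2.72 ± 0.35, adjusted p = 4.20e-05), and Anxa1, an annexin gene, at 122, 87.4 and 110 CPM in Matrigel and 1730, 1340 and 814 CPM in collagen (3.61 ± 0.38, adjusted p = 7.31e-06). Anxa8 stood at 14.1, 10.4 and 9.6 CPM in Matrigel and 180, 167 and 113 CPM in collagen (3.75 ± 0.25). Il33, an alarmin gene, stood at 8.77, 4.79 and 3.55 CPM in Matrigel and 355, 277 and 230 CPM in collagen (5.63 ± 0.38, adjusted p = 9.62e-08). The 2 lower members, named after their values were seen, were Anxa10 at -0.93 ± 0.30 (adjusted p = 0.0278) and Gja1 at -2.70 ± 0.90 (adjusted p = 0.0327). The call of Anxa10 ended with library totals (adjusted p = 0.0503), with all 18 libraries in 1 fit (0.0771), on TPM (limma 0.083) and without MG_5FU replicate 1 or 3 or COL_5FU replicate 2 or 3 (0.068 to 0.123), and that of Gja1 by DESeq2 (0.169) and without MG_5FU replicate 2 or 3 or COL_5FU replicate 1 or 2 (0.083 to 0.106).

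Of 22 YAP and TEAD target genes measured out of 25, 14 were higher and 0 lower (median 1.34). Ccn2, a matricellular protein gene, stood at 59.9, 97.5 and 108 CPM in Matrigel and 1070, 937 and 823 CPM in collagen (3.42 ± 0.31, adjusted p = 1.89e-06). Ankrd1, whose window holds GGAATG at 2 places, stood at 4.19, 1.53 and 2.31 CPM in Matrigel and 144, 109 and 46 CPM in collagen (5.20 ± 0.63, adjusted p = 2.43e-05). Amotl2, a feedback regulator gene of YAP, stood at 21.5, 17.7 and 23.2 CPM in Matrigel and 102, 94.2 and 60.3 CPM in collagen (2.04 ± 0.25), and Arhgef17, a guanine nucleotide exchange factor gene, rose by 3.76 ± 0.45 (adjusted p = 2.27e-05). Ccn1 rose by 1.95 ± 0.26 (adjusted p = 5.42e-05). For the enterocyte windows shown, Cyp3a11 was at -8.95 ± 0.67 (adjusted p = 2.67e-07) and Alpi at -6.91 ± 0.77 (adjusted p = 1.20e-05).

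The genes with the largest rises included several that sit in none of these programmes. Cav1, the caveolin gene, stood at 0, 0 and 0.295 CPM in Matrigel and 19.4, 19 and 5.28 CPM in collagen, and all of its Matrigel counts came from replicate 3, so that its change of 7.34 ± 1.03 was 11.72 without that library and 6.70 without MG_5FU replicate 1. F2r, which encodes the thrombin receptor, stood at 0.51, 0.362 and 0.148 CPM in Matrigel and 60.8, 41.5 and 25.3 CPM in collagen (6.89 ± 0.68, adjusted p = 3.75e-06). Msn, which encodes the membrane to actin linker moesin, stood at 0.218, 2.13 and 0.985 CPM in Matrigel and 155, 117 and 73.1 CPM in collagen (6.71 ± 0.76, and 7.69 without MG_5FU replicate 2). Runx2, a factor gene known from bone, stood at 0.109, 0.0805 and 0.197 CPM in Matrigel and 16.5, 15.6 and 7.58 CPM in collagen (6.67 ± 0.82). Cnfn and Tgm1, genes of the cornified envelope of squamous epithelium, stood at 0.291, 0.0805 and 0.0985 CPM in Matrigel and 15.2, 11.2 and 4.52 CPM in collagen and at 2.26, 0.483 and 0.197 CPM in Matrigel and 83.2, 43.2 and 35.3 CPM in collagen. Their changes were 5.95 ± 0.74 and 5.71 ± 0.84, and 6.80 and 7.26 without MG_5FU replicate 1. The protease gene Prss22 rose by 5.57 ± 0.59 (adjusted p = 1.95e-05).

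Keratins form the intermediate filaments of epithelium. Of 12 measured out of 18, 6 were higher and 2 lower (median 0.94). Krt4, a keratin gene of squamous lining, stood at 6.33, 4.31 and 6.55 CPM in Matrigel and 105, 107 and 70.3 CPM in collagen (4.04 ± 0.38, adjusted p = 2.26e-06). Krt7 and Krt23 rose by 1.20 ± 0.22 (adjusted p = 7.42e-04) and 1.56 ± 0.19 (adjusted p = 2.47e-05). Krt20, the keratin gene of mature enterocytes, stood at 474, 445 and 392 CPM in Matrigel and 37.9, 47.5 and 36.8 CPM in collagen (-3.42 ± 0.17, adjusted p = 6.48e-09). Of 26 claudin and junction genes measured out of 28, 9 were higher and 5 lower (median 0.19), and on TPM 14 were higher and 1 lower (median 0.57). Cldn2, a pore-forming claudin gene of the crypt, rose by 1.10 ± 0.09 (adjusted p = 6.74e-07), and Cldn15, its villus counterpart, fell by 1.65 ± 0.18 (adjusted p = 1.06e-05). Cldn6, a claudin gene of embryonic epithelium, rose by 3.25 ± 0.50.

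Immediate early genes answer growth factors, stretch and stress within minutes. Of 22 immediate early and heat shock genes, 16 were higher and 0 lower (median 0.85). Fos stood at 79, 122 and 104 CPM in Matrigel and 945, 1010 and 826 CPM in collagen (3.19 ± 0.24, adjusted p = 3.23e-07), and Fosb at 0.182, 0.121 and 0.295 CPM in Matrigel and 18.5, 24.5 and 19.1 CPM in collagen (6.70 ± 0.50, adjusted p = 2.67e-07). Dusp1, which encodes a MAP kinase phosphatase, stood at 17.3, 25.5 and 21.3 CPM in Matrigel and 517, 387 and 198 CPM in collagen (4.10 ± 0.35), and Egr1 rose by 1.69 ± 0.17 (adjusted p = 3.57e-06).

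Among niche signals, Wnt ligand genes moved in both directions. Of 11 ligand and secretion genes measured out of 14, 6 were higher and 3 lower (median 1.33), with 1 lower on TPM. Wnt7b stood at 1.35, 3.02 and 3.4 CPM in Matrigel and 108, 94.8 and 59.1 CPM in collagen (5.09 ± 0.45, adjusted p = 4.39e-06). Wnt3, the ligand gene of Paneth cells, stood at 33.4, 32.7 and 36.1 CPM in Matrigel and 8.03, 5.95 and 7.9 CPM in collagen (-2.22 ± 0.17, adjusted p = 3.07e-07). Wls and Porcn, whose products secrete and acylate Wnt proteins, rose by 1.33 ± 0.14 (adjusted p = 6.84e-06) and 1.79 ± 0.21 (adjusted p = 1.94e-05). Of 18 Wnt target and feedback genes measured out of 21, 8 were higher and 1 lower (median 0.31). Cd44, an adhesion receptor gene, stood at 193, 225 and 217 CPM in Matrigel and 716, 651 and 647 CPM in collagen (1.66 ± 0.13, adjusted p = 5.57e-07), and Ccnd1, the cyclin D1 gene, rose by 0.98 ± 0.18 (adjusted p = 9.36e-04). The exception was Sfrp5, a Wnt inhibitor gene, at -2.94 ± 0.56 (adjusted p = 9.92e-04, -3.62 without COL_5FU replicate 3). Axin2, a direct feedback target named after its value was seen, was at 0.08 ± 0.11 (adjusted p = 0.641).

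Of 20 crypt base stem cell genes, 5 were higher and 5 lower (median 0.07), and on TPM 8 were higher and 2 lower (median 0.43). Lgr5, the R-spondin receptor gene that marks these cells, stood at 89.9, 106 and 98 CPM in Matrigel and 137, 253 and 318 CPM in collagen (1.27 ± 0.25, adjusted p = 0.00132), and the lowest collagen library lay above the highest Matrigel library. Olfm4, a secreted marker of the same cells, stood at 473, 759 and 558 CPM in Matrigel and 7.3, 4.93 and 12 CPM in collagen (-6.20 ± 0.36, adjusted p = 2.41e-08), the opposite direction. Aqp4, a water channel gene, followed Olfm4, at -4.56 ± 0.53 (adjusted p = 1.81e-05, -5.34 without COL_5FU replicate 3). Prom1, which encodes prominin-1, stood at 298, 363 and 374 CPM in Matrigel and 1410, 1500 and 1100 CPM in collagen (1.95 ± 0.14), and Tnfrsf19, a Wnt-responsive receptor gene, rose by 1.25 ± 0.20 (adjusted p = 2.37e-04).

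Of 17 EGF family genes measured out of 20, 8 were higher and 1 lower (median 0.53), with 0 lower on TPM. Hbegf and Tgfa, ligand genes, rose by 1.85 ± 0.15 (adjusted p = 6.56e-07) and 1.09 ± 0.14 (adjusted p = 3.22e-05). Egfr, the receptor gene, stood at 58.8, 82.1 and 74.7 CPM in Matrigel and 212, 208 and 170 CPM in collagen (1.45 ± 0.16, adjusted p = 1.26e-05), and Dusp6, a feedback phosphatase gene, rose by 1.08 ± 0.14 (adjusted p = 4.18e-05). Of 12 TGF-beta and activin genes measured out of 14, 6 were higher and 1 lower (median 1.41). Tgfbr2, a receptor gene, stood at 174, 198 and 194 CPM in Matrigel and 545, 636 and 531 CPM in collagen (1.59 ± 0.10, adjusted p = 4.74e-08). Tgfb1 and the latency protein gene Ltbp4 rose by 2.04 ± 0.27 (adjusted p = 5.11e-05) and 1.97 ± 0.36 (adjusted p = 8.56e-04), while Tgfbi fell by 5.97 ± 0.82 (adjusted p = 7.72e-05, -7.14 without COL_5FU replicate 2). Of 16 BMP genes measured out of 20, 3 were higher and 2 lower (median 0.18), with 6 higher on library totals and 7 on TPM. The shares over all genes tested were 17.0% higher and 18.6% lower. Bmp8b rose by 2.28 ± 0.17 (adjusted p = 3.49e-07) and the response gene Id2 by 1.29 ± 0.17 (adjusted p = 5.11e-05). Bmp7 and the decoy receptor gene Bambi changed by -1.33 ± 0.15 (adjusted p = 1.01e-05) and -1.94 ± 0.24 (adjusted p = 2.88e-05).

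Most inflammatory genes measured were higher in collagen. Of 19 interferon genes measured 14 did not pass the test. Among all genes tested 35.5% were called, 17.0% higher and 18.6% lower. Of 23 NF-kB and chemokine genes measured out of 30, 15 were higher and 4 lower (median 1.05). Csf2, which encodes the growth factor GM-CSF, stood at 0.801, 0.0805 and 0.197 CPM in Matrigel and 36.8, 15 and 9.54 CPM in collagen (5.76 ± 0.85, adjusted p = 1.46e-04), and at 7.22 and 5.05 on the log2 scale without replicate 1 of MG_5FU and of COL_5FU. Nfkb2 and Tnfaip3, a subunit gene and a feedback inhibitor gene of NF-kB, rose by 1.25 ± 0.19 (adjusted p = 1.42e-04) and 1.62 ± 0.22 (adjusted p = 5.77e-05). The members that fell included Ccl25, a chemokine gene of small intestinal epithelium, at 543, 426 and 456 CPM in Matrigel and 16.5, 19.6 and 28.5 CPM in collagen (-4.46 ± 0.28, adjusted p = 4.29e-08), and Il18, at -2.47 ± 0.30 (adjusted p = 2.61e-05). Of 19 interferon response genes measured out of 26, 1 was higher and 4 were lower, and the median of -0.19 was 0.22 on TPM, where 3 were higher and 1 lower. Bst2 rose by 0.83 ± 0.19 (adjusted p = 0.00377) and Ifit1 fell by 3.51 ± 0.86 (adjusted p = 0.00625) at low levels. Ifi35 and Usp18 were at -0.59 ± 0.14 and -2.75 ± 0.83. The call of Ifi35 ended on TPM (limma adjusted p = 0.272), and that of Usp18 ended without MG_5FU replicate 3 or COL_5FU replicate 2 or 3 (adjusted p of 0.0735 to 0.0742).

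Of 19 MHC and antigen presentation genes measured out of 20, 3 were higher and 5 lower (median 0.02), with 5 higher on library totals and 9 on TPM (median 0.46). Among all genes tested 17.0% were higher and 18.6% lower. The immunoproteasome genes Psmb10 and Psmb8 changed by -1.84 ± 0.16 (adjusted p = 1.43e-06) and -1.30 ± 0.21 (adjusted p = 2.96e-04). H2-Q1 and H2-Q2, nonclassical class I genes with similar copies, changed by -4.64 ± 0.45 and -3.42 ± 0.22. Of 14 senescence and secreted factor genes measured out of 18, 8 were higher and 2 lower (median 0.83), with 0 lower on TPM. Igfbp7 and Igfbp3, insulin-like growth factor binding protein genes, stood at 1.02, 0.926 and 1.03 CPM in Matrigel and 28.4, 22.4 and 9.83 CPM in collagen and at 2.58, 1.09 and 1.28 CPM in Matrigel and 38.1, 25.5 and 15.2 CPM in collagen (4.34 ± 0.52 and 3.97 ± 0.56). Tnfrsf11b, the osteoprotegerin gene, rose by 1.90 ± 0.32 (adjusted p = 4.56e-04). Cdkn2a, which encodes the cell cycle inhibitors p16 and p19ARF, had 0 counts in Matrigel and 80 in collagen, at least 22-fold higher.

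p53 target genes moved both ways, with a small median. Of 32 p53 target genes, all measured, 9 were higher in collagen, 5 lower and 18 did not pass (median 0.19). Over all genes tested, 17.0% were higher and 18.6% lower. With library totals 14 were higher and 2 lower, and on TPM 23 were higher and 1 lower. Mdm2, which encodes the ubiquitin ligase of p53, stood at 320, 444 and 429 CPM in Matrigel and 833, 893 and 864 CPM in collagen (1.12 ± 0.12, adjusted p = 7.39e-06). Cdkn1a, which encodes the cell cycle inhibitor p21, stood at 1170, 957 and 1020 CPM in Matrigel and 926, 916 and 900 CPM in collagen, and its difference of -0.20 ± 0.19 did not pass (adjusted p = 0.45) and was 0.21 on TPM. Trp53inp1, a p53 cofactor gene, and the kinase gene Plk2 rose by 1.13 ± 0.19 (adjusted p = 3.88e-04) and 0.99 ± 0.18 (adjusted p = 6.99e-04), and Sesn1, a stress-induced metabolic regulator gene, fell by 1.31 ± 0.16 (adjusted p = 2.35e-05). Of 24 BCL2 family and death regulator genes measured out of 26, 10 were higher and 3 lower (median 0.26), with 0 lower on TPM. They included members on both sides of apoptosis. Bcl2l1, which encodes the survival protein BCL-XL, stood at 124, 136 and 152 CPM in Matrigel and 352, 323 and 257 CPM in collagen (1.18 ± 0.16, adjusted p = 7.28e-05). Bok and Bik, death-promoting family members, rose by 1.52 ± 0.20 (adjusted p = 4.27e-05) and 2.42 ± 0.36 (adjusted p = 1.47e-04), and Ripk3, a necroptosis kinase gene, by 0.84 ± 0.11 (adjusted p = 6.21e-05).

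Genes that handle 5-FU and pyrimidines moved both ways, with 8 of 19 measured out of 20 higher and 5 lower (median 0.21), and 3 lower on TPM. Dpyd, which encodes the enzyme that degrades 5-FU, stood at 63.2, 70.4 and 73.3 CPM in Matrigel and 3.08, 6.23 and 11.9 CPM in collagen (-3.27 ± 0.38, adjusted p = 1.62e-05, -3.88 without COL_5FU replicate 3). Tymp, the thymidine phosphorylase gene, stood at 6.11, 5.84 and 3.99 CPM in Matrigel and 0.917, 1.26 and 1.2 CPM in collagen (-2.24 ± 0.34, adjusted p = 1.78e-04). Abcc5, which encodes a nucleotide analog exporter, stood at 35.4, 37.6 and 44.5 CPM in Matrigel and 89.4, 87.8 and 91.2 CPM in collagen (1.19 ± 0.14, adjusted p = 2.27e-05). Tyms, which encodes the enzyme that 5-FU blocks, stood at 100, 101 and 102 CPM in Matrigel and 159, 140 and 168 CPM in collagen (0.63 ± 0.11, adjusted p = 5.67e-04), and its adjusted p was 0.05 with all 18 libraries in 1 fit. Tk1, the thymidine kinase gene, stood at 28.7, 31.7 and 26.5 CPM in Matrigel and 46.8, 52.1 and 63.6 CPM in collagen (0.90 ± 0.14, adjusted p = 1.98e-04).

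Many cell cycle genes were higher in collagen, by small amounts. Of 24 S phase and DNA replication genes, 13 were higher and 0 lower (median 0.40), with 20 higher on library totals and 23 on TPM. The replicative helicase genes Mcm3 and Mcm4 rose by 0.84 ± 0.11 (adjusted p = 6.04e-05) and 0.80 ± 0.13 (adjusted p = 2.76e-04). Of 24 G2/M and mitosis genes, 13 were higher and 0 lower (median 0.39), with 21 higher on TPM. Bub1, a spindle checkpoint kinase gene, stood at 23.8, 36.2 and 30.6 CPM in Matrigel and 45.2, 57.3 and 77.8 CPM in collagen (0.99 ± 0.18, adjusted p = 7.37e-04), and Ccnb2 and Hmmr rose by 0.75 ± 0.13 (adjusted p = 4.88e-04) and 0.60 ± 0.14 (adjusted p = 0.00476). Cdk1 was at 0.55 ± 0.12 (adjusted p = 0.00314), with an adjusted p of 0.0919 in 1 fit of all 18 libraries. Mki67, the proliferation marker, stood at 59.3, 61.7 and 59.3 CPM in Matrigel and 42.2, 56.9 and 74.7 CPM in collagen, and its groups overlapped (-0.05 ± 0.16, adjusted p = 0.836).

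Metabolic gene lists leaned in opposite directions. Of 24 glycolysis and hypoxia genes, 16 were higher and 1 lower (median 0.83). Pfkl, a phosphofructokinase gene, stood at 248, 180 and 176 CPM in Matrigel and 486, 736 and 760 CPM in collagen (1.71 ± 0.21, adjusted p = 2.86e-05). The hexokinase gene Hk1 and the glucose carrier gene Slc2a1 rose by 1.68 ± 0.15 (adjusted p = 2.01e-06) and 1.36 ± 0.15 (adjusted p = 9.39e-06). The exception, Ndrg1, a hypoxia- and differentiation-linked gene, fell by 2.85 ± 0.24 (adjusted p = 9.77e-07). Of 21 fatty acid oxidation and ketogenesis genes, 13 were lower and 2 higher (median -0.64), with 7 lower on TPM. The thiolase gene Acaa2, the peroxisomal enzyme gene Ehhadh, Cpt2 and Bdh1 changed by -1.73 ± 0.12, -2.45 ± 0.16, -1.15 ± 0.10 and -1.15 ± 0.10. Of 26 sterol and fatty acid synthesis genes, 15 were higher and 3 lower (median 0.36). Scd1, a desaturase gene, stood at 161, 248 and 242 CPM in Matrigel and 7.59, 15.1 and 24.3 CPM in collagen (-3.79 ± 0.39, adjusted p = 5.34e-06), and Insig1, a feedback gene of sterol synthesis, and Elovl6 changed by -1.75 ± 0.24 and -1.10 ± 0.11.

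Of 18 urea cycle, arginine and polyamine genes, 11 were lower and 2 higher (median -0.78), with 4 higher on TPM. Arg2, which encodes mitochondrial arginase, stood at 348, 386 and 410 CPM in Matrigel and 2.16, 4.72 and 3.3 CPM in collagen (-6.81 ± 0.35, adjusted p = 8.89e-09). Otc and Aoc1, genes of the urea cycle and of polyamine breakdown, were at -6.24 ± 0.43 and -8.25 ± 0.64, and at -6.84 and -11.06 without COL_5FU replicate 3. Nags fell by 2.94 ± 0.22 (adjusted p = 2.94e-07). Of 17 metallothionein and oxidative stress genes, 10 were lower and 1 higher (median -0.88), with 2 higher on library totals and 4 on TPM. Mt1, a zinc-binding metallothionein gene, stood at 3670, 2550 and 3000 CPM in Matrigel and 83.5, 97 and 96.4 CPM in collagen (-5.06 ± 0.21, adjusted p = 1.69e-09), and Mt2 fell by 5.82 ± 0.25 (adjusted p = 2.13e-09). Mt4 had 1 collagen count against 1985 in Matrigel, a ratio of 2460 (95% interval 442 to 97300). The zinc importer gene Slc39a4 went the other way, at 138, 92.5 and 99.3 CPM in Matrigel and 654, 736 and 627 CPM in collagen (2.61 ± 0.16, adjusted p = 4.49e-08), and the quinone reductase gene Nqo1 fell by 2.83 ± 0.23 (adjusted p = 7.31e-07). Of 22 integrated stress and unfolded protein genes, 11 were lower and 4 higher, and on TPM 5 were lower and 9 higher (median 0.06 against -0.36). Atf4 and Herpud1 changed by -0.79 ± 0.09 (adjusted p = 1.53e-05) and -1.29 ± 0.12 (adjusted p = 2.62e-06). Xbp1, a factor gene of the unfolded protein response, stood at 278, 285 and 268 CPM in Matrigel and 136, 143 and 138 CPM in collagen and fell (adjusted p = 9.84e-07), whereas Atf3 rose by 2.40 ± 0.25 (adjusted p = 7.53e-06).

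Markers of cells outside the epithelium were low in both groups, and several defining ones had no counts. The 13 mesenchymal markers summed to 9.6 to 15.4 CPM in MG_5FU and 1.25 to 3.63 CPM in COL_5FU, where Col1a1, Col1a2, Pdgfra and Pdgfrb were among the 7 at 0. Of the 3 measured, Vim fell (-3.33 ± 0.60, adjusted p = 6.72e-04, -4.50 without COL_5FU replicate 1). MG_5FU replicate 2 held 41 counts of Pdgfra, 12 of Col1a2 and 11 of Col3a1, against 0 to 3 in replicates 1 and 3. Pdgfrb had 4 counts in replicate 2 and 8 in replicate 3 of MG_5FU. The 13 immune markers summed to 39.8 to 41.9 CPM and 67.1 to 98.7 CPM, with Ptprc, the pan-leukocyte gene, at 6 counts in MG_5FU and 0 in COL_5FU and Cd4, Cd8a and Adgre1 at 0 in both. Of 5 measured, Cd14 (1.72 ± 0.26) and Cd68 (2.39 ± 0.35) rose, and Lyz2 (-2.83 ± 0.33) and Itgam (-4.22 ± 1.00, -8.82 without COL_5FU replicate 1 and -3.58 without replicate 3) fell. The 8 endothelial markers summed to 1.82 to 2.45 CPM and 4.62 to 6.6 CPM, and of 3 measured Tek rose (4.32 ± 1.19, adjusted p = 0.012, 5.39 without MG_5FU replicate 2). The 8 glia and neuron markers summed to 15.1 to 20.1 CPM and 1.99 to 3.85 CPM, and of 3 measured Tubb3 (-2.51 ± 0.44) and Ret (-2.54 ± 0.33) fell. These sums moved with the group beside the matrix, inflammatory and enteroendocrine lists, and their part in those results was not tested.

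The same contrast was read in the cultures without 5-FU, which share no library with those treated. Of the 5905 genes called with 5-FU, 3315 (56.1%) were called with the same sign without it, which is 63.9% of the calls without 5-FU. Another 29 genes were higher with and lower without 5-FU, and 50 were lower with and higher without. Across the 16611 genes the log2 fold changes correlated at Pearson 0.71 and Spearman 0.63, a description over genes, which are not independent.

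**Figure D3:**
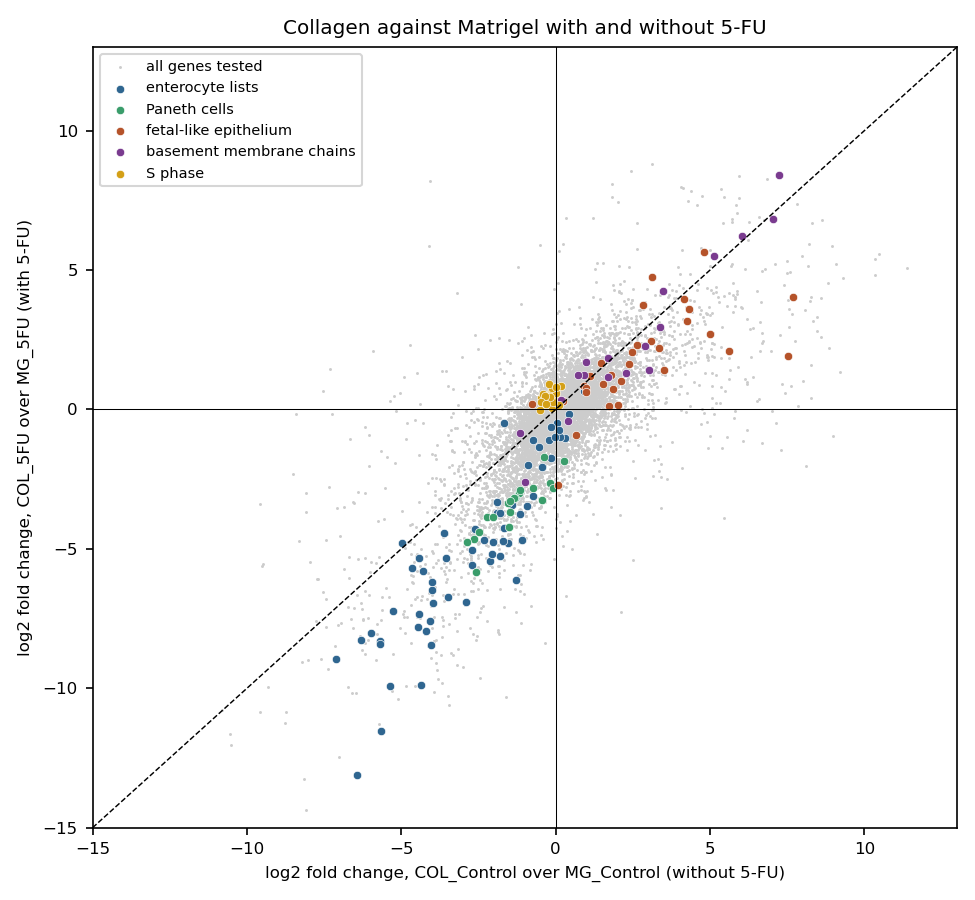
Log2 fold change of collagen over Matrigel with 5-FU (vertical) against the same without 5-FU (horizontal) for the 16611 genes tested (grey), with the dashed line marking equal values and members of 5 groups of lists in colour. Enterocyte genes (blue) and Paneth genes (green) lie mostly below the line, fetal-like genes (red) mostly on or below it in the upper right, and S phase genes (yellow) near 0 without 5-FU and above 0 with it.

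The difference of the contrast with 5-FU minus without was tested as an interaction. It was called for 1360 genes (8.19%), 313 higher (1.88%) and 1047 lower (6.30%). The share higher, 23%, was 33.7% with RLE size factors, 33.0% with library totals, 37.9% by DESeq2, 37.7% without the filter and 57.8% on TPM. Without COL_Control replicate 3, the library with both sex signals, 4485 genes were called without 5-FU and 951 for the interaction. Among the 1360, the gap was wider with 5-FU for 552 genes lower and 61 genes higher in collagen, and narrower for 51 lower and 183 higher. For 201 and 312 genes that were higher and lower with 5-FU the sign without it was the opposite. With all 18 libraries in 1 fit, 521 genes were called for the interaction. Counts of list members called for the interaction, given below, come from the main fit alone and were not rerun under the alternatives.

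The medians of the Paneth and enterocyte lists lay further from 0 with 5-FU than without. Of 20 Paneth genes the interaction was lower for 19 and the median went from -1.41 without to -3.26 with 5-FU. Lyz1 averaged 3460 ± 547 CPM in MG_Control, 12500 ± 1970 in MG_5FU, 1560 ± 211 in COL_Control and 1670 ± 198 in COL_5FU (SD, n = 3). In those means Lyz1 stood higher with 5-FU in Matrigel and at a like level in collagen, with an interaction of -1.75 ± 0.21 (adjusted p = 2.44e-04). The interaction was lower for 17 of 20 brush border genes (median -2.07 without and -5.09 with 5-FU), 13 of 20 transporters (-2.51 and -4.91), 13 of 23 lipid genes (-1.89 and -4.67) and 23 of 28 xenobiotic genes (-2.08 and -4.89), and higher for 0 of each. Sis averaged 173 ± 31.3 CPM in MG_Control, 342 ± 31.9 in MG_5FU, 7.84 ± 4.43 in COL_Control and 1.53 ± 0.701 in COL_5FU (-3.31 ± 0.53, adjusted p = 0.00189). The interaction was also lower for 9 of 15 goblet, 10 of 25 enteroendocrine, 3 of 14 tuft and 7 of 10 distal genes, the last with medians of -1.89 and -4.10. For the metallothionein and integrated stress lists it was lower for 4 of 17 (median -0.54 and -0.88) and 5 of 22 genes (-0.13 and -0.36).

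**Figure D4:**
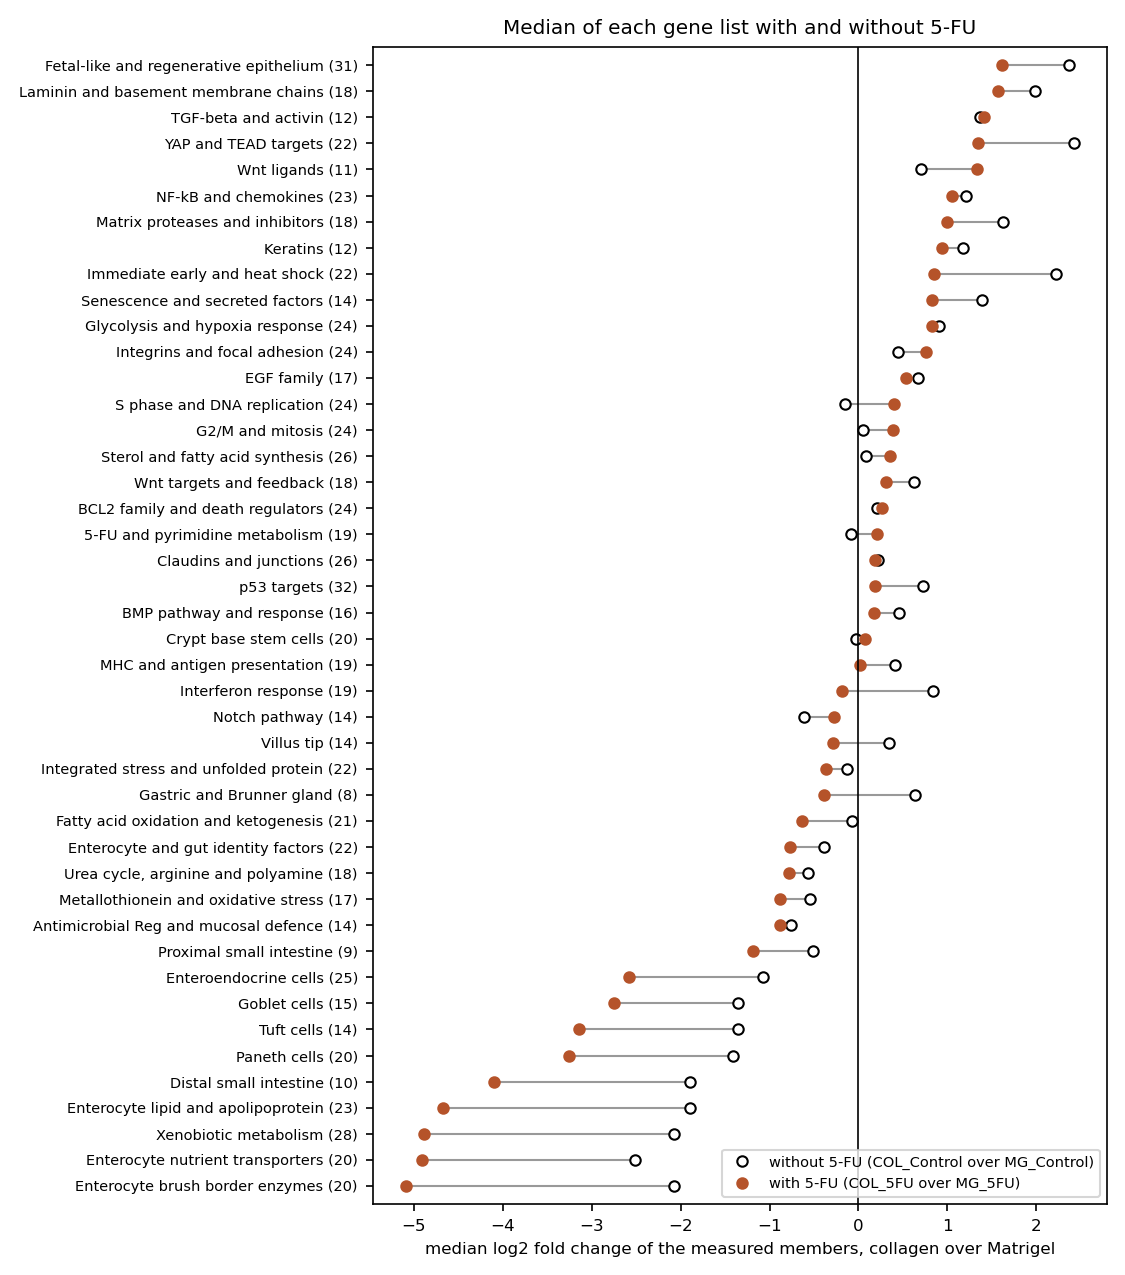
Median log2 fold change of collagen over Matrigel for the measured members of each gene list, without 5-FU (open circles) and with 5-FU (filled circles), with the number of members in parentheses. The median of the brush border list moved from -2.07 to -5.09, that of the immediate early and heat shock list from 2.22 to 0.85, and that of the S phase list from -0.15 to 0.40.

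The medians of the fetal-like, YAP and TEAD, immediate early and p53 lists lay nearer to 0 with 5-FU than without. The fetal-like median went from 2.37 to 1.62 and the interaction was lower for 8 of 31 genes. The YAP and TEAD median went from 2.42 to 1.34, with 5 of 22 lower. Ccn2 averaged 4.63 ± 0.901 CPM in MG_Control, 88.3 ± 25.1 in MG_5FU, 139 ± 70.6 in COL_Control and 944 ± 125 in COL_5FU, so that its interaction was -1.49 ± 0.43 (adjusted p = 0.0471) while its highest level was in COL_5FU. Ly6a gave -2.28 ± 0.48 (adjusted p = 0.00969). The immediate early list went from 2.22 to 0.85, with 8 of 22 lower, and p53 targets from 0.73 to 0.19, with 11 of 32 lower. Cdkn1a was higher in collagen without 5-FU, by 0.83 ± 0.19 (adjusted p = 0.00426), and gave -1.03 ± 0.26 (adjusted p = 0.0282). The interferon list changed sign, from 0.84 to -0.19, with 4 of 19 lower, and the sign with 5-FU was positive on TPM.

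S phase genes went the other way. Of 24 genes 0 were higher and 3 lower in collagen without 5-FU (median -0.15), 13 were higher with it, and the interaction was higher for 11 and lower for 0. Tk1 averaged 129 ± 12.1 CPM in MG_Control and 111 ± 17.2 in COL_Control, against 29 ± 2.6 in MG_5FU and 54.2 ± 8.57 in COL_5FU (1.12 ± 0.19, adjusted p = 0.00308). Tyms gave 0.75 ± 0.15 (adjusted p = 0.00893). The integrin list had 11 of 24 higher without and 19 with 5-FU, and the interaction was higher for 2.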

How the data were processed

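RNA from mouse small intestinal organoids was sequenced on a NovaSeq X Plus after SMART-Seq mRNA and Nextera XT library preparation, per the labels' protocols. The authors deposited estimated counts per gene (67.8% of nonzero values whole, tolerance 1e-9) and TPM, which sum to 1000000 in each library. The submitters' processing notes name bcl2fastq 2.20, DRAGEN and the GRCm39 (mm39) build; annotation, counting tool and filters are not given in the sources used here. Depth was 22.3 to 33.4 M counts over the 12 libraries fitted.

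Estimated counts were rounded and fitted with edgeR 4.0.16 (R 4.3.3): TMM scaling, filterByExpr (minimum count 10, minimum total 15), quasi-likelihood F-tests, group as the only term, and Benjamini-Hochberg adjustment over the 16611 genes tested. SE is the absolute log2 fold change over the square root of its F. CPM use the same scaling. A group at 0 counts was given 3 counts for bounds, and a group with 1 to 3 counts a ratio with its exact 95% interval; both cover counting error only. Fits were tested on simulated data. Replicates of a group differed beyond sampling noise (chi-square over its degrees of freedom at least 10.6), so no library was counted as a duplicate.

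Symbols were matched for 52081 of 55414 identifiers from GENCODE M21, a table of another build, so no gene coordinates are given. Promoter windows are from RefSeq, GRCm38.p6. The 48 gene lists (923 genes, 3 without an identifier: Gm15284, Muc6, Rigi) and the members were chosen with earlier results of these data known. Named genes were the 12 largest called changes per direction (at least 10 CPM in the higher group, no overlap, no gene models), 6 per direction for the interaction, up to 4 members per list with the smallest adjusted p, and 16 fixed markers; a few of these are not reported here. Alternatives were DESeq2 1.42.0, RLE factors, library totals, other filters, all 18 or only 6 libraries, a log2 threshold of 1, a block on the replicate number, and each replicate left out in turn. Limma-trend (limma 3.58.1) on the deposited TPM (log2 with a pseudocount of 1, genes at 1 TPM or more in 3 libraries or more) was added after the data were seen.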

Additional observations from a re-analysis of the deposited data

Results flagged for a closer look

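The results here differed between cultures with and without 5-FU by a test of that difference itself, the interaction of surroundings and treatment in the fit of 12 libraries. It was called by edgeR for 1360 genes (8.19% of those tested). Among the 179 genes named from the gene lists 94 were called, but those genes were picked for small adjusted p in the contrast with 5-FU, which shares its libraries with the interaction, so nothing about the lists is read from that count. Fitted values are log2, collagen over Matrigel with 5-FU minus the same without, and for a gene with 0 counts in 1 of the 4 groups they depend on the prior count and are no bound.

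Among the genes with the largest positive values, the gap in favour of Matrigel without 5-FU had shrunk, closed or turned. Gkn3, a gastrokine gene, gave 2.97 and averaged 22.7 ± 4.59 CPM in MG_Control, 4.93 ± 0.983 in COL_Control, 3.58 ± 0.654 in MG_5FU and 6.08 ± 2.17 in COL_5FU (SD, n = 3). Clca3b gave 2.31 and averaged 1370 ± 320, 670 ± 47.1, 308 ± 41.8 and 750 ± 127 CPM in the same order. Ntn4, the netrin-4 gene, gave 2.60 and averaged 14.2 ± 2.58, 2.21 ± 0.503, 11.9 ± 4.08 and 11.3 ± 4.61 CPM. The values of Arhgef4, Rassf5 and Prss12 were 2.80, 2.57 and 2.56, and all 3 calls ended with all 18 libraries in 1 fit (edgeR adjusted p of 0.0903, 0.0858 and 0.106); that of Arhgef4 also ended without any 1 of 5 libraries and that of Rassf5 without 1.

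Among the genes with the largest negative values, 5 had 0 counts over MG_Control: Pakap (-9.91), Ggta1 (-7.85), Dscaml1 (-6.68), Mslnl (-6.63) and Axl (-6.42). On TPM the sign turned for Ggta1 (0.50), Dscaml1 (0.79), Mslnl (0.74) and Axl (0.77), and with all 18 libraries the calls of Dscaml1 and Axl ended (edgeR adjusted p of 0.099 and 0.12). With 5-FU they were expressed in both surroundings. Pakap stood at 8.44, 10.8 and 14.2 CPM in Matrigel and 5.14, 7.14 and 5.22 CPM in collagen, Ggta1 at 7.86, 12.3 and 13.3 CPM in Matrigel and 26.5, 29.5 and 29.6 CPM in collagen, and Axl, a receptor kinase gene, at 8.55, 6.04 and 4.68 CPM in Matrigel and 12.4, 9.97 and 13.6 CPM in collagen. Clec2h (-8.70) averaged 7.87 ± 1.4 CPM in MG_Control and 2.57 ± 0.685 in COL_Control, and had 1 count over COL_5FU. Slc5a4b (-6.30), Mfsd4b2 (-5.56) and Rdh7 (-5.29) had 0, 0 and 4 counts over COL_5FU.

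Of the fixed set of marker genes, 10 differed. They were Sis (-3.31), Krt20 (-2.51), Dclk1 (-2.29), Ly6a (-2.28), Lyz1 (-1.75), Olfm4 (-1.55), Ccn2 (-1.49), Muc2 (-1.08), Cdkn1a (-1.03) and Tyms (0.75). Tyms alone among them was positive. The interactions of these 10 genes were not rerun under the alternatives.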

How the results depend on the processing

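The 5905 calls with 5-FU came to 4849 to 7470 under other tools, scalings, filters and sets of libraries, and to 2715 where calls also had to reach 1 on the log2 scale. The 5188 calls without 5-FU came to 2215 by that requirement, and the 1360 interaction calls to 802 with it, to 2231 by DESeq2 and to 521 with all 18 libraries in 1 fit; the cause was not tested. Leaving out 1 replicate gave 4580 to 5189, 3977 to 4755 and 931 to 1297 calls. Replicate numbers were read as names only, since not every same-numbered pair correlated above 0.1 after group means were removed: MG_5FU with COL_5FU gave 0.200, 0.247 and 0.057, MG_Control with COL_Control 0.262, -0.047 and 0.101, and MG_5FU with COL_Control 0.228, 0.424 and 0.075. All 3 numbers exceeded it for MG_Control with MG_5FU (0.567, 0.140 and 0.472), COL_Control with COL_5FU (0.434, 0.148 and 0.220) and MG_Control with COL_5FU (0.182, 0.203 and 0.193), and replicate 2 was male in each group; as a hint from the data, 12 of 12 libraries were most alike to one of their own number. With a replicate block 6186, 5541 and 1596 genes were called. Fits of only the 6 libraries compared called 5928 genes with and 4555 without 5-FU, and with a replicate block added 5826 and 4126. Most named genes were picked for a small adjusted p or a large called change in these same libraries. Most of their calls were therefore likely to hold, and the count that follows says nothing about other genes. Of 206 named genes tested with 5-FU, 199 kept call and sign under every alternative run for them, 5 lost the call under at least 1, and 2 that were not called changed sign. These were Cdkn1a (0.21 on TPM) and Mki67 (0.07 with library totals, 0.05 without the filter, 0.04 with all 18 libraries, between -0.28 and 0.15 without 1 replicate, and 0.27 on TPM). Among genes named after their values were seen, Hnf4a changed sign on TPM (0.19). Interactions reversed on TPM for Ggta1 (0.50), Dscaml1 (0.79), Mslnl (0.74) and Axl (0.77). The interaction calls of Arhgef4, Rassf5, Prss12, Dscaml1 and Axl ended with all 18 libraries; that of Arhgef4 also ended without MG_Control replicate 1, MG_5FU replicate 2 or 3 or COL_5FU replicate 1 or 2, and that of Rassf5 without COL_5FU replicate 2. Depth of 22.3 to 33.4 M counts limits genes with few counts, whose folds are bounds or ratios.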

Other observations

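In a principal component view of the 12 libraries, the first component held 53.9% of the variance and the second 26.4%. On the first, the MG_5FU libraries lay at -39.9, -36.7 and -38.0 and the COL_5FU libraries at 80.3, 76.7 and 66.8, with COL_Control at 34.7, 20.9 and 12.2 and MG_Control at -56.6, -59.8 and -60.6. COL_5FU replicate 3 lay nearest to COL_Control among the treated collagen libraries.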
